A study of Mus musculus with 9 samples.

Results

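The genes described here are 38 immediate-early and dissociation response genes, chosen by a list of symbols and kept where the mean normalized count over the 9 libraries was at least 10. All 38 listed genes were in the table and met that minimum, among 16575 of 23134 genes that did. RNA was sequenced from mouse brain cells collected on magnetic beads against CD11b, a surface integrin of microglia that monocytes, neutrophils and NK cells also carry. There were 3 groups of 3 libraries: control mice given saline, control mice given lipopolysaccharide (LPS, a bacterial cell-wall component that provokes inflammation) and mice with an astrocyte conditional knockout (cKO) of Chd8 given LPS, labelled cKO LPS below. The study asks what the loss of this chromatin remodeller in astrocytes does to gene expression at baseline and during neuroinflammation. LPS was given into the peritoneum at 5 mg/kg, mice were 2 to 3 months old, and after perfusion 72 hours later the cortex and hippocampus were dissociated, although the tissue label reads cortex. ACSA-2-positive astrocytes, the cell type named in the knockout label, were removed first. Some reads of astrocyte markers remained in every library, as given below. The file headers call the controls WT. Neither the driver of the deletion nor any allele carried by the controls is stated in the labels. Every sample title contains the word Saline and the cKO titles read cKO Saline, whereas the genotype and treatment labels, the column headers and the authors' comparison names say LPS, which was used. No group of cKO saline libraries was among the 9. The labels number the libraries without tying each to its own mouse, and the p-values below therefore measure a spread that may be partly technical.

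Immediate-early genes are transcribed within minutes of a stimulus from factors already present in the cell, and their mRNAs are short-lived. Their products are largely transcription factors (the Fos and Jun subunits of the AP-1 dimer, Egr, Nr4a and Klf proteins) and feedback inhibitors that dephosphorylate MAP kinases or destroy AU-rich mRNAs. Enzymatic dissociation of fresh brain tissue is known to induce many of them in microglia, together with the heat-inducible chaperones Hspa1a and Hspa1b. In these data the level in the living tissue and induction during preparation cannot be told apart, because every library was prepared by dissociation. In bulk RNA, fewer cells of a type and less RNA per cell cannot be told apart either.

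Several stretches just before the transcription start are shown, to let the Nr4a genes and Dusp1 be read beside Fos, Jun and Rhob, which are described below. RefSeq windows on GRCm38.p6, the assembly also called mm10, span 250 bases before to 50 after a start and were available for 31 of the 38 genes. They were searched on both strands for 5 motifs: TGACG, the core of the cAMP response element; TGACGTCA, its full palindrome; TGANTCA, an AP-1 site; the CArG box, bound by serum response factor; and GAANNTTC, a heat shock element unit. TGACGTCA contains TGACG, so those counts overlap. The core TGACG was in a window of 18 of the 31 genes (58.1%) and of 32.7% of 12476 tested genes with a window. The 3 Nr4a genes, which encode orphan nuclear receptors, each held 4 copies in 1 window. No other listed gene held as many in a single window (Csrnp1 has 4 windows, with 1 or 2 copies in each), and 63 of the 12476 genes (0.505%) did; this cut at 4 copies was chosen after the counts were seen. TGACG is in capitals on whichever strand it reads, as CGTCA where it is on the other strand, and each stretch is printed 5′ to 3′ along the gene.
Nr4a1 (chr15:101266598-101266825, plus strand, 20 bases short of the start site): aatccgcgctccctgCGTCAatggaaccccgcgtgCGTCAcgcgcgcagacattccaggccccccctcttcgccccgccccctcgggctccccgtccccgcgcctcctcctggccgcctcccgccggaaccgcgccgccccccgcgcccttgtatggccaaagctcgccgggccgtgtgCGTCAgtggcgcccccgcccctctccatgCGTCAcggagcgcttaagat
Nr4a2 (chr2:57124095-57124218, minus strand, 91 bases short of the start site): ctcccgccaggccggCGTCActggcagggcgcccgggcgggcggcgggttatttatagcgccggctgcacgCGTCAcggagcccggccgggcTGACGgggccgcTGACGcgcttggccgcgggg
Nr4a3 (chr4:48045059-48045177, plus strand, 127 bases short of the start site): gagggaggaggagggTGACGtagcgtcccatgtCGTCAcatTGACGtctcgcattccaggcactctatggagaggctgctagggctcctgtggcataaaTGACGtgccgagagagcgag
Fos (chr12:85473746-85473843, plus strand, 46 bases short of the start site): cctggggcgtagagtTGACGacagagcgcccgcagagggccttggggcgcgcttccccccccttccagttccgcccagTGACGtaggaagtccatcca
Dusp1 (chr17:26508593-26508678, minus strand, 120 bases short of the start site): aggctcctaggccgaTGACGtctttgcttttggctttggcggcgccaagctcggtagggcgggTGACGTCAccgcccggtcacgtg
Of the others, 2 copies stood before Fos, and Dusp1 held 3, of which 2 overlap within the full palindrome. TGACGTCA was in windows of 3 listed genes (Btg2, Dusp1 and Maff; 9.68%) against 3.29% of tested genes, and the CArG box also in 3 (Dusp5, Egr2 and Zfp36; 9.68%) against 1.56%. TGANTCA was in 2 of 31 (6.45%) and in 6.45% of tested genes. These matches describe letters and not binding.

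Jun and Rhob, which were lower after LPS, had no TGACG in their windows. Jund, also lower, had none in a window that ends before its GENCODE start. Egr2, lower too, held 2 copies in a window, and Egr1 had no window. Junb, Fosb, Atf3 and Btg2, with negative but uncalled changes in control LPS, held TGACG as well. Outside the Nr4a family, Fosl2, Gadd45b and Ier3, with positive but uncalled changes there, held none. Dusp2, Dusp5, Btg1 and Maff, also positive and uncalled, held TGACG, and Klf10 had no window. Whether TGACG goes with direction was not tested. For Jun and Rhob the 100 bases that end at the start site are shown, in lower case because TGACG is absent. GAANNTTC was found in 4 of 31 genes (Fosl2, Hspa1a, Hspa1b and Jun; 12.9%) against 7.29% of tested genes. It is in capitals in the stretches of Hspa1a and Hspa1b, which are identical; over the whole 300-base windows 296 bases were equal between these neighbouring copies.
Jun (chr4:95052223-95052322, minus strand): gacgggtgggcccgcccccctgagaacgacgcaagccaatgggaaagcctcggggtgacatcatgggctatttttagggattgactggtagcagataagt
Rhob (chr12:8500010-8500109, minus strand): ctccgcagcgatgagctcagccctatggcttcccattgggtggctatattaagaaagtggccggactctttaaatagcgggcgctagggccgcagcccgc
Hspa1a (chr17:34972238-34972275, minus strand, 81 bases short of the start site): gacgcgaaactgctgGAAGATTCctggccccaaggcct
Hspa1b (chr17:34959320-34959357, minus strand, 81 bases short of the start site): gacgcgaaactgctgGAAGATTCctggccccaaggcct

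The libraries held 10845937 to 86571481 reads, recovered from the normalized values as set out in the methods, and saline library 3 was the shallowest. Homeostatic microglia markers were abundant in all 9 libraries (summed normalized counts 953950.3 to 1609861), so cells with the labelled identity were present. Neutrophil markers summed to 764 to 1630.0 in the saline libraries and to 10933 to 93208 in the 6 LPS libraries, and 10 of 10 were higher in control LPS than in saline (limma). Monocyte markers summed to 811 to 1614 and to 3409 to 24471 in the same groups, with 7 of 9 higher. Control LPS library 1 had a sum of 102663 for astrocyte markers against 5290 to 9511 elsewhere. Ly6g, a defining neutrophil gene, was at 0 in saline library 1; no neutrophil, monocyte or astrocyte marker was at 0 in all libraries, and the part of these cells in the results below was not tested.

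The share of reads on the 38 genes was higher in the saline group than in both LPS groups. It was 4.57%, 4.42% and 3.12% in saline libraries 1 to 3, 2.28%, 2.13% and 2.43% in control LPS and 1.58% to 2.39% in cKO LPS. All saline libraries thus lay above all LPS libraries in this share, which the most abundant genes dominate. With each gene counted equally the groups overlapped: the mean log2 value of the 38 was 13.75, 13.68 and 13.04 in the saline libraries, 13.01 to 13.16 in control LPS and 12.77 to 13.09 in cKO LPS, so saline library 3 lay within the range of the LPS libraries. Per kilobase of exon, the highest saline level was that of Rhob (61425 normalized counts per kilobase), ahead of Junb (52962) and Zfp36 (52202), and the lowest was that of Nr4a2 (49.0). Rhob, Junb and Zfp36 kept to the top of the order in control LPS, where Zfp36 (33968) and Junb (29901) led Rhob (27262).

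**Figure D1:**
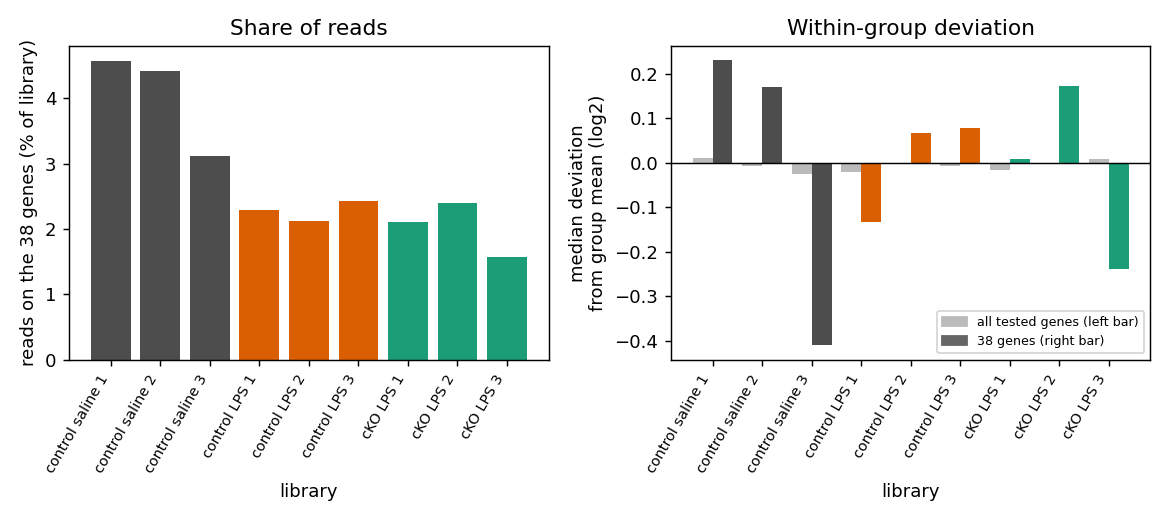
Left, percentage of each library's reads on the 38 genes (bars from 0, coloured by group). Right, median deviation from the group mean on the log2 scale over all tested genes (grey, left bar) and over the 38 genes (right bar): saline library 3 and cKO LPS library 3 lie below their groups in the 38 genes, at -0.41 and -0.24, while all genes stay close to 0.

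The first comparison asks what LPS given 72 hours earlier changed in cells of control mice. Of the 38 genes, 5 fell and 0 rose in control LPS against control saline (limma, adjusted p under 0.05): the AP-1 subunit genes Jun and Jund, the zinc finger factor genes Egr1 and Egr2, and Rhob. They fell 2.29-fold to 2.72-fold. Over all tested genes, 0.923% were called lower and 4.68% higher (153 and 776 genes, or 243 and 568 after quantile normalization). The median log2 fold change of the 38 was -0.51 against 0.02 over all genes, and 27 of the 38 (71.1%) were below 0, against 48.2% of all tested genes. Every control LPS library was below every saline library in 14 of the 38 genes, a pattern found in 8.23% of all genes, and above in 4 (Fosl2, Nr4a1, Nr4a3 and Dusp2), found in 13.4%. The 5 calls depended on single libraries: 0 of the 5 remained without saline library 1, without saline library 2 or without control LPS library 3, 1 remained without saline library 3 or control LPS library 2, and 4 remained without control LPS library 1, whose astrocyte markers stood apart. In a fit on the 2 groups alone 1 of the 5 remained. In the authors' deposited table of the same comparison, 11 of the 38 were lower and 1, Nr4a3, was higher, where 9.92% of all genes with an adjusted p were called in either direction.

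**Figure D2:**
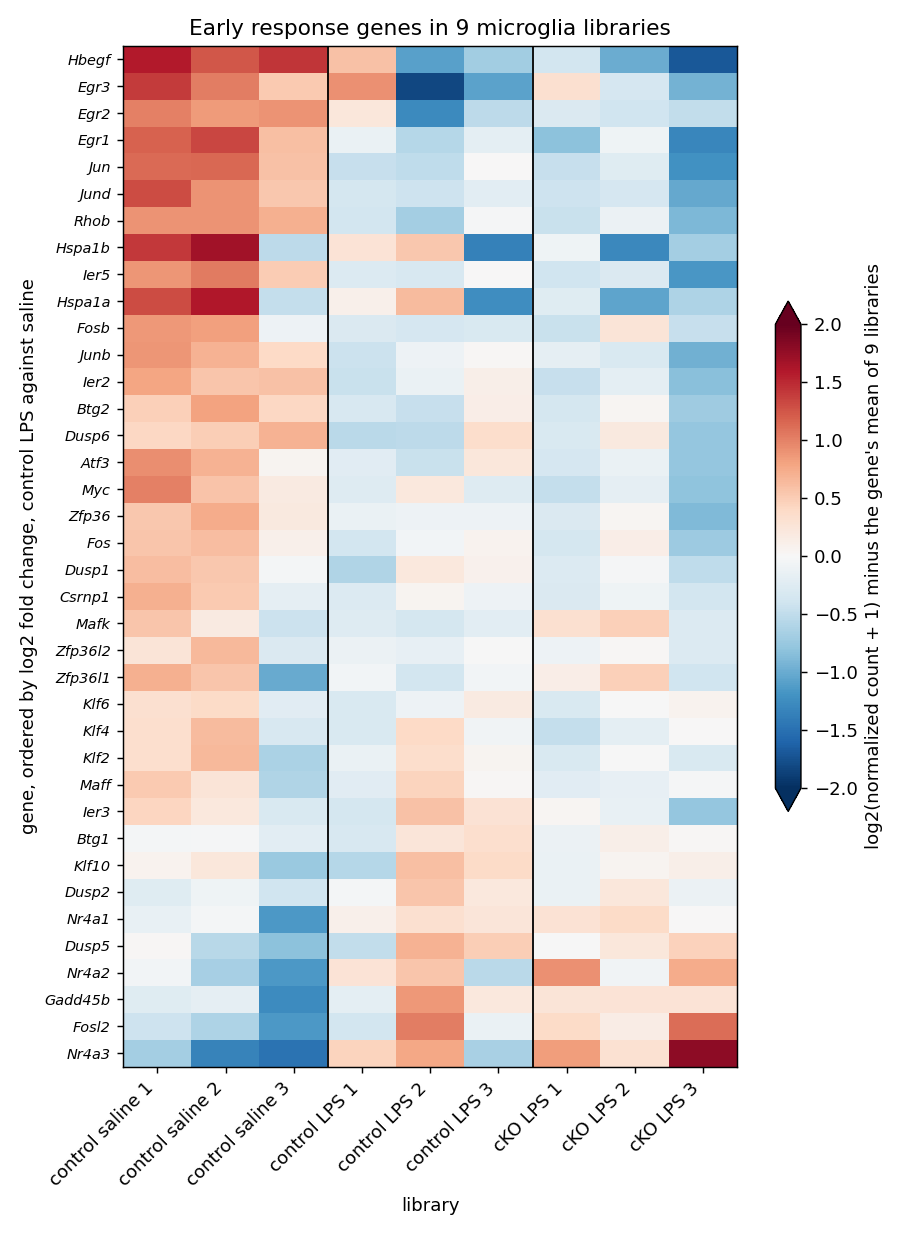
Each row is a gene and each column a library; colour gives log2(normalized count + 1) minus the gene's mean over the 9 libraries, cut at 2 either way. Most upper rows are red in the 3 saline libraries and blue in the 6 LPS libraries, the bottom rows (Nr4a3, Fosl2, Gadd45b) are blue in saline and red in cKO LPS but mixed in control LPS, and Hspa1a and Hspa1b vary by library.

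Among the 6 Fos and Jun subunit genes, 2 fell and the median log2 fold change was -0.83. Jun, the founding Jun subunit of AP-1 (chromosome 4, 95049034 to 95052222, minus strand), was read at 150584, 152816 and 102779 normalized counts in saline libraries 1 to 3, 49854, 48285 and 69399 in those of control LPS, and 49750.5, 58252 and 29741 in those of cKO LPS. The saline and LPS values did not overlap, and control LPS lay 2.42-fold below saline (log2 fold change -1.27 with an SE of 0.30, limma adjusted p = 0.0426). Jund, usually the least inducible Jun (chromosome 8, 70698949 to 70700616, plus strand), had 56547, 42431 and 33139.7 normalized counts in saline libraries 1 to 3, 17953, 17055 and 19818 in those of control LPS, and 17158, 18169 and 11229 in those of cKO LPS. Again no LPS library reached the lowest saline library, and the level was 2.36-fold lower (log2 fold change -1.24 with an SE of 0.24, limma adjusted p = 0.0195).

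Fos (chromosome 12, 85473890 to 85477273, plus strand), the partner of Jun in AP-1, was at 98629.9, 103239.7 and 71683 normalized counts in saline libraries 1 to 3, 52059.7, 64785 and 70257 in those of control LPS, and 52491, 73605 and 40676 in those of cKO LPS. Control LPS library 3, at 70257, lay just below the lowest saline library, and cKO LPS library 2 lay above it; control LPS against saline was not called (log2 fold change -0.54 with an SE of 0.27, limma adjusted p = 0.324). Junb went from 121865 ± 20057 to 68801 ± 11014 (SD, n = 3 per group) with no overlap, and its test did not pass (log2 fold change -0.82, limma adjusted p = 0.124). Fosb, a Fos paralog, had 41343 ± 13844 in saline and 22052 ± 399 in control LPS (log2 fold change -0.84, limma adjusted p = 0.149). Fosl2, which encodes Fra-2, differed from these in direction: it was at 2914, 2548 and 1749 normalized counts in saline libraries 1 to 3, 3024, 7892 and 3563 in those of control LPS, and 5075, 4311 and 8411 in those of cKO LPS. Every LPS library exceeded every saline one, but control LPS library 2 stood far above the others of its group, and the change was not called (log2 fold change 0.90 with an SE of 0.38, limma adjusted p = 0.237).

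The 3 Egr genes had the lowest median of the factor families, at -1.45, and 2 of them fell. Egr1 (chromosome 18, 34859823 to 34864984, plus strand), an early zinc finger activator, was read at 134478, 149229 and 90582 normalized counts in saline libraries 1 to 3, 54034, 40035 and 52083 in those of control LPS, and 33741, 55734 and 23999 in those of cKO LPS. All 6 LPS values were below the lowest saline value, and control LPS was 2.53-fold lower (log2 fold change -1.34 with an SE of 0.33, limma adjusted p = 0.0477). Egr2 (chromosome 10, 67535475 to 67542188, plus strand), a related factor known for its role in myelinating Schwann cells, had 5667, 5037 and 5227 normalized counts in saline libraries 1 to 3, 3266, 1154 and 1955 in those of control LPS, and 2297, 2138 and 1990.3 in those of cKO LPS. Its saline libraries were close together and control LPS library 1 was the highest of the LPS libraries. Control LPS was 2.72-fold lower (log2 fold change -1.45 with an SE of 0.30, limma adjusted p = 0.0266). Egr3 had 7349.6, 5670.3 and 4024 normalized counts in saline libraries 1 to 3, 5271, 787 and 1322 in those of control LPS, and 3485, 2221 and 1444 in those of cKO LPS; control LPS library 1 lay within the saline range and the other 2 far below it, and the test did not pass (log2 fold change -1.64 with an SE of 0.62, limma adjusted p = 0.186).

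Rhob (chromosome 12, 8497661 to 8500009, minus strand) was at 150501, 150648 and 131715 normalized counts in saline libraries 1 to 3, 62433, 50094 and 79586 in those of control LPS, and 59199, 74517 and 43335 in those of cKO LPS. The saline values lay far above all LPS values, and control LPS was 2.29-fold lower (log2 fold change -1.19 with an SE of 0.27, limma adjusted p = 0.0335). The growth factor gene Hbegf, an EGF receptor ligand, had the lowest fold change of the 38 with 671, 531 and 606 normalized counts in saline libraries 1 to 3, 336, 105 and 137 in those of control LPS, and 173, 112 and 68.3 in those of cKO LPS. Its saline values lay above all LPS values, yet control LPS against saline fell just outside the threshold (log2 fold change -1.82 with an SE of 0.45, limma adjusted p = 0.0502). Ier2 and Ier5, short nuclear early response proteins, were near the threshold too: 22145 ± 1876 against 12869.6 ± 2489 for Ier2 (limma adjusted p = 0.0502) and 41346 ± 7601 against 20521 ± 2562 for Ier5 (limma adjusted p = 0.0511). Ier3, a regulator of apoptosis, showed 7889 ± 1945 in saline and 8369.6 ± 2599.8 in control LPS (log2 fold change 0.07).

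**Figure D3:**
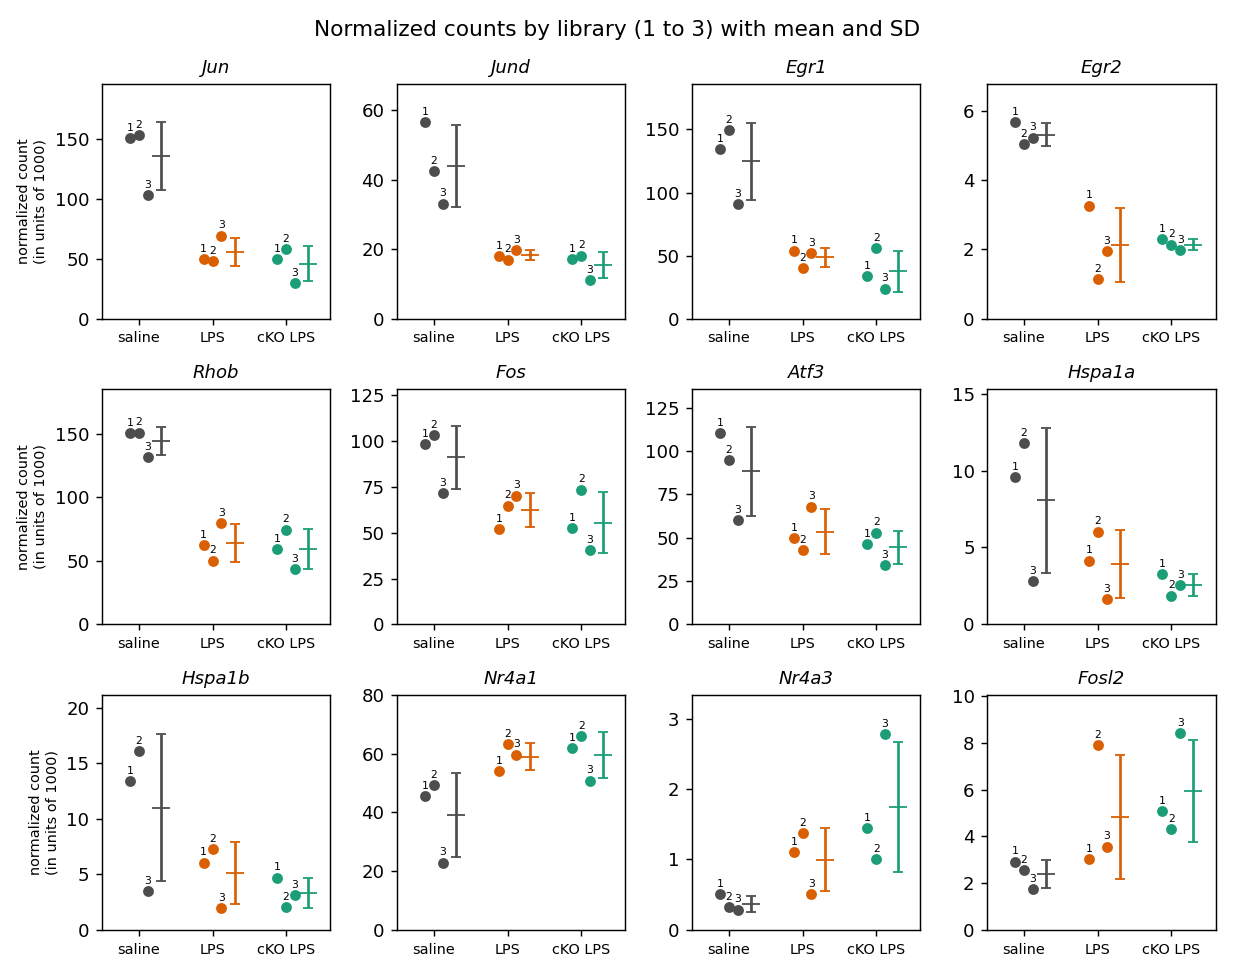
Normalized counts in units of 1000 for 12 genes, on linear axes from 0; numbered points are libraries 1 to 3 of each group and the bar beside them is the mean with SD. Jun, Jund, Egr1, Egr2 and Rhob are higher in all 3 saline libraries than in any LPS library, Nr4a1, Nr4a3 and Fosl2 are lower in all saline libraries than in any LPS library, and Hspa1a and Hspa1b overlap.

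The 3 Nr4a genes, whose values are given in full after they had been seen, had positive log2 fold changes of 0.66 to 1.35, none called. Nr4a1 (Nur77; chromosome 15, 101254269 to 101274795, plus strand) had 45426, 49396 and 22875 normalized counts in saline libraries 1 to 3, 54048, 63333 and 59658 in those of control LPS, and 61869, 66052 and 50859 in those of cKO LPS. The lowest LPS library was above the highest saline library (log2 fold change 0.66 with an SE of 0.29, limma adjusted p = 0.253). Nr4a3 (Nor-1; chromosome 4, 48045153 to 48086447, plus strand) was far less abundant per kilobase of exon (61.9 in saline against 11181 for Nr4a1), at 504, 319 and 289 normalized counts in saline libraries 1 to 3, 1104, 1379 and 513 in those of control LPS, and 1443, 1003 and 2779 in those of cKO LPS. The lowest control LPS value was only just above the highest saline value (log2 fold change 1.35 with an SE of 0.45, limma adjusted p = 0.129). Nr4a2 (Nurr1) had 281, 184 and 132 normalized counts in saline libraries 1 to 3, 354, 431 and 202 in those of control LPS, and 555, 281 and 493 in those of cKO LPS, with overlap between the groups (log2 fold change 0.72 with an SE of 0.39, limma adjusted p = 0.363).

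Atf3 (chromosome 1, 191170296 to 191218039, minus strand), a stress-induced bZIP factor, was at 110338, 94604 and 60089.7 normalized counts in saline libraries 1 to 3, 49782, 42724 and 67993 in those of control LPS, and 46307, 52903 and 34163 in those of cKO LPS. Control LPS library 3 lay above saline library 3 and the other control LPS values below all saline values (log2 fold change -0.71 with an SE of 0.29, limma adjusted p = 0.231). Maff and Mafk, small Maf proteins that lack an activation domain, had log2 fold changes of 0.02 and -0.37. The 6 genes of Klf and other transcription factors (Klf2, Klf4, Klf6, Klf10, Myc and Csrnp1) had none called, at a median of -0.22. Myc, a growth regulator, was at 3467 ± 984 in saline and 2118 ± 418 in control LPS (log2 fold change -0.69, limma adjusted p = 0.152), while Klf2 was at 7884 ± 3195 and 7365 ± 1271 (log2 fold change -0.02). Klf4, Klf6, Klf10 and Csrnp1 ranged from -0.46 (Csrnp1) to 0.28 (Klf10).

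The feedback genes did not share a direction, and none was called. Among the MAP kinase phosphatases, Dusp6, which acts on ERK in the cytoplasm, had 16852 ± 1766 in saline and 10252 ± 3913 in control LPS (log2 fold change -0.78, limma adjusted p = 0.185). Dusp1 had a log2 fold change of -0.47, and the nuclear phosphatase genes Dusp2 and Dusp5 had 0.48 and 0.68. Zfp36, which encodes tristetraprolin, a protein that destabilises cytokine mRNAs, was at 181142 ± 34145 and 117867 ± 1494 without overlap (log2 fold change -0.60, limma adjusted p = 0.313). Its relatives Zfp36l1 and Zfp36l2 were at -0.24 and -0.30 on the log2 fold change scale. The antiproliferative Btg2 was at 98535 ± 15031 and 57834 ± 13009.9 without overlap (log2 fold change -0.78, limma adjusted p = 0.133), against 0.17 for Btg1. Gadd45b, a stress-induced protein that binds MAP kinase kinases, had 4055 ± 1474 in saline and 7268 ± 2799 in control LPS (log2 fold change 0.85, limma adjusted p = 0.19).

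The inducible chaperone genes varied widely within groups. Hspa1a (chromosome 17, 34969190 to 34972156, minus strand) was read at 9589, 11779.8 and 2788 normalized counts in saline libraries 1 to 3, 4144, 6028 and 1642 in those of control LPS, and 3265, 1876 and 2526 in those of cKO LPS. Hspa1b (chromosome 17, 34956436 to 34959238, minus strand) had 13379, 16087 and 3491 normalized counts in saline libraries 1 to 3, 6042, 7283 and 1959.5 in those of control LPS, and 4706, 2056 and 3110.0 in those of cKO LPS. Saline libraries 1 and 2 were the highest of the 9 for both, and saline library 3 lay within the LPS range. Neither was called in control LPS (log2 fold change -0.98, SE 0.59, limma adjusted p = 0.423 for Hspa1a; -1.04, SE 0.65, limma adjusted p = 0.443 for Hspa1b). The ratio of Hspa1b to Hspa1a ranged from 1.10 to 1.46 over the libraries. The copies are nearly identical and no source used here says how shared reads were assigned, so their separate values are uncertain.

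Between cKO LPS and control LPS, the question was whether loss of Chd8 in astrocytes altered these genes under LPS. None of the 38 was called: 0 of 38 and 0 of 16575 genes passed limma's adjusted threshold in either direction (0.0% higher, 0.0% lower). At an unadjusted limma p under 0.05 there were 0 of the 38 and 263 of all genes. DESeq2 on the recovered reads called 4 genes in all and none of the 38, and the authors' deposited table also had 4 genes and none of the 38. In none of the 38 did the groups separate, while every cKO LPS library was above every control LPS library in 2.7% of all genes and below in 2.32%. The log2 fold changes ran from -0.62 (Hbegf, SE 0.45) to 0.79 (Nr4a3, SE 0.45), so differences of that size are not excluded by these libraries. They were below 0 in 29 of 38 (76.3%), against 54.3% of all tested genes, with a median of -0.16 against -0.02 over all genes. The median of the 38 was -0.06 without cKO LPS library 3, -0.08 without control LPS library 3, -0.25 without cKO LPS library 2 and -0.28 without control LPS library 1. Markers of several other cells were also below 0 in this comparison, none of them called: 10 of 10 neutrophil markers (median -1.23), 10 of 10 astrocyte markers (-1.70), 8 of 9 monocyte markers (-0.29) and 7 of 7 oligodendrocyte markers (-0.32). Border-associated macrophage markers (3 of 7 below 0, median 0.02) and B cell markers (2 of 4, median 0.13) did not lean this way. The astrocyte markers summed to 102663 in control LPS library 1, against 5290 and 7837 in control LPS libraries 2 and 3. The part of other cells in the lean of the 38 genes was not tested.

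Jun was at -0.32 (SE 0.30), Fos at -0.20 (SE 0.27), Egr1 at -0.44 (SE 0.33) and Atf3 at -0.26 (SE 0.29) in this comparison. cKO LPS library 3 was the lowest of its group in 24 of the 38 genes and had the lowest Jun, Fos, Egr1 and Atf3 values of all 9 libraries. Nr4a2 was at 0.44 (SE 0.39) and Nr4a1 at 0.01 (SE 0.29), or -0.0105 after quantile normalization. Ier2, Ier3 and Ier5 were at -0.34, -0.47 and -0.43.

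The third comparison sets cKO LPS against control saline. These groups differ in both genotype and LPS, which cannot be told apart here without cKO saline libraries. The comparison shares the saline libraries with the first, so the values are given side by side and no likeness is drawn from them. Here 10 of the 38 genes fell (1.41% of all genes did) and 1 rose (5.41%). Those that fell were Jun, Junb, Jund, Egr1, Egr2, Myc, Ier2, Ier5, Rhob and Hbegf; Nr4a3 rose. All cKO LPS libraries were below all saline libraries in 15 of 38 genes (13.8% of all genes) and above in 4, namely Fosl2, Nr4a1, Nr4a3 and Gadd45b (17.9% of all genes). The median log2 fold change was -0.69. Without cKO LPS library 3, 3 of the 11 calls remained, 4 remained without saline library 1 or 2, 5 without cKO LPS library 1 and 7 without saline library 3. The authors' deposited table had 15 of the 38 lower and 3 higher (Fosl2, Nr4a2 and Nr4a3), where 12.2% of all genes with an adjusted p were called in either direction.

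The deepest fall was that of Hbegf, to 118 ± 52.6 from 603 ± 70.4 (log2 fold change -2.44 with an SE of 0.45, limma adjusted p = 0.0143). Egr1 was 3.43-fold lower than in saline (log2 fold change -1.78 with an SE of 0.33, limma adjusted p = 0.014), where control LPS had been 2.53-fold lower. Jun was 3.02-fold lower (log2 fold change -1.59 with an SE of 0.30, limma adjusted p = 0.0156) and Jund 2.83-fold lower (log2 fold change -1.50 with an SE of 0.24, limma adjusted p = 0.0077). Junb, not called in control LPS, reached 56507 ± 15013 (log2 fold change -1.13 with an SE of 0.27, limma adjusted p = 0.0368). Ier5 reached 15741 ± 4697 (log2 fold change -1.43 with an SE of 0.25, limma adjusted p = 0.0112). In cKO LPS against control LPS, Egr1, Junb and Ier5 were at -0.44, -0.31 and -0.43, none called. Nr4a3 was at 1742 ± 925, and its log2 fold change of 2.14 (SE 0.45, limma adjusted p = 0.0231) corresponds to 4.42-fold above saline. Its highest value was in cKO LPS library 3, which was the lowest of its group in 24 of the 38 genes. Fos (-0.74, limma adjusted p = 0.148), Atf3 (-0.97, limma adjusted p = 0.0883), Hspa1a (-1.45, limma adjusted p = 0.191) and Hspa1b (-1.55, limma adjusted p = 0.202) were not called.

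**Figure D4:**
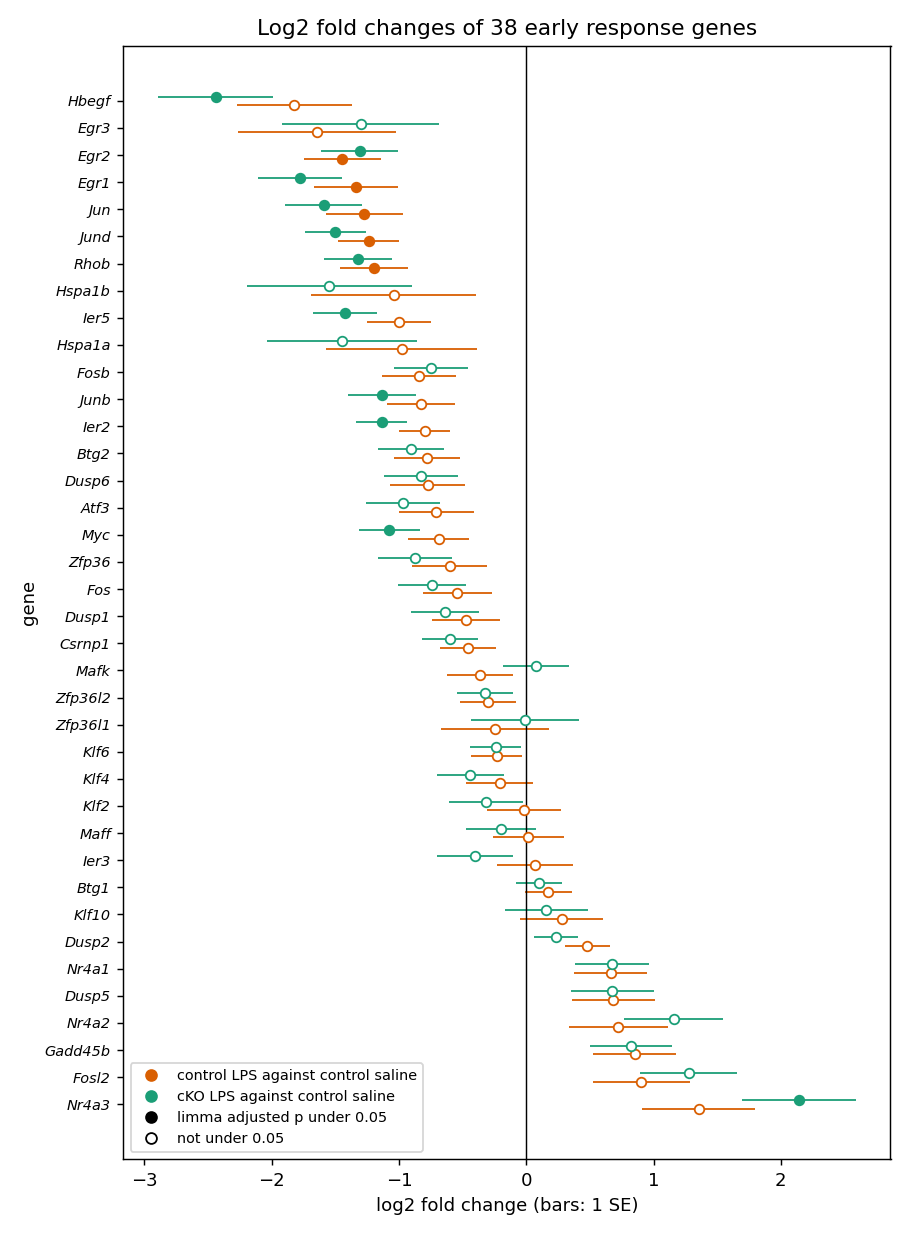
Log2 fold changes (points, with 1 SE) of the 38 genes in control LPS (orange) and cKO LPS (green), each against the same 3 control saline libraries; filled points have a limma adjusted p under 0.05. Filled points at the left are Jun, Jund, Egr1, Egr2 and Rhob in both, with Junb, Myc, Ier2, Ier5 and Hbegf in cKO LPS, and Nr4a3 in cKO LPS is the filled point at the right.

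Within groups, the 38 genes varied from library to library. The median SD of log2 values within a group was 0.40, 0.32 and 0.39 in saline, control LPS and cKO LPS, against 0.22, 0.21 and 0.16 over the 9562 genes at least as abundant as the least abundant of them. Saline library 3 was lowest of its group in 34 of the 38 genes, control LPS library 1 in 20 and cKO LPS library 3 in 24. Of all 9 libraries, cKO LPS library 3 was the lowest in 17 genes and saline library 3 in 13, and saline libraries 1 and 2 were the highest of all 9 in 14 and 13. The most variable gene was Hspa1b in saline (SD 1.20 on the log2 scale), Egr3 in control LPS (1.42) and Nr4a3 in cKO LPS (0.74).

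The genes are compact. Their median span was 5.21 kilobases against 22.1 over all tested genes matched to GENCODE M21. In every transcript that GENCODE tags as basic, 8 of 38 (21.1%) had a single exon, against 6.08% of all. Transcripts without that tag were not counted. These 8 were Jun, Junb, Jund, Ier2, Ier5, Hspa1a, Hspa1b and Rhob. In control LPS against saline their median log2 fold change was -1.02, with 3 called lower, against -0.27 and 2 called lower in the other 30; in cKO LPS against saline the medians were -1.44 and -0.36, with 6 and 4 called lower. The split was made after the calls were known.

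Other genes of the same responses did not move as one. Of 32 further early response genes tested, 3 rose and 1 fell in control LPS against saline, at a median of 0.25. Ptgs2 (cyclooxygenase-2, the prostaglandin-forming enzyme) rose from 572 ± 70.7 to 3654 ± 2095 (log2 fold change 2.52 with an SE of 0.39, limma adjusted p = 0.00772), and Id2, an inhibitor of helix-loop-helix factors, rose 2.51-fold, as did the kinase gene Pim1 at 2.83-fold (limma adjusted p = 0.00934 and 0.0404). Errfi1, an EGF receptor inhibitor, fell from 2965 ± 211 to 1518 ± 71.5 (log2 fold change -0.96 with an SE of 0.13, limma adjusted p = 0.00516). Of 19 heat shock genes 3 fell and 1 rose, with a list median log2 fold change of -0.37. Dnajb1, an HSP70 co-chaperone, fell from 6336 ± 1075 to 3153 ± 483 (limma adjusted p = 0.012). Its relative Dnajb4 (log2 fold change -0.87, limma adjusted p = 0.0171) and the HSP90 co-chaperone gene Fkbp4 (-0.62, limma adjusted p = 0.0446) fell, and Hspe1, a mitochondrial chaperonin gene, rose (0.68, limma adjusted p = 0.0376). Of 16 early NF-kB and chemokine genes, the cytokine gene Il1b alone passed, from 10551 ± 1701 to 62674 ± 28419 (log2 fold change 2.49 with an SE of 0.30, limma adjusted p = 0.00304); the inhibitor Nfkbia was at -0.51 and the list median at 0.23. None of 27 kinases and factors that act upstream of early genes was called. The closest was Mapkapk2, a kinase below p38 (log2 fold change 0.89 with an SE of 0.23, limma adjusted p = 0.0556), and the list median was -0.05. Homeostatic microglia markers had 0 of 11 called, 11 of 11 below 0 and a median of -0.55 in control LPS against saline, a size near that of the 38 genes. Endothelial and mural markers (10 of 10 below 0, median -0.62) and oligodendrocyte markers (7 of 7, median -0.41) leaned the same way, none called. Neutrophil, monocyte and astrocyte markers had positive medians of 5.30, 4.06 and 1.10.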

How the data were processed

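RNA of CD11b-bead cells was measured in 9 mouse libraries, 3 in each of 3 groups taken from the genotype labels. The authors deposited normalized signal, that is, gene counts divided by a size factor per library (per the file headers and the values), and tables of comparisons holding their log2 fold changes, standard errors and Wald statistics (score values), p-values and adjusted p-values, also per the file headers. The submitters' processing notes name STAR, RSEM, featureCounts, DESeq2, edgeR 3.30.3, Trimmomatic, MultiQC 1.12 and FastQC, and build mm10, without roles. No header or label says whether counting used strand.

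From the deposited values, whole reads were recovered (100% of values within 0.01 of a whole read). The test was limma-trend (limma 3.58.1, R 4.3.3) on log2(value + 1) over genes with a mean of at least 10, in 1 fit over the 9 libraries with 6 residual degrees of freedom, adjusted by Benjamini-Hochberg over all 16575 genes within each of 3 comparisons. The scale understates changes of low genes. Folds were taken from the log2 fold changes, that is, from means of log2 values and not from ratios of the printed means. edgeR 4.0.16 with TMM and DESeq2 1.42.0 on recovered reads, other pseudocounts, filters and scalings, and leaving out each library were alternatives. The code was tested on simulated data. Replicate pairs differed by more than sampling noise (chi-square per degree of freedom 28.6 to 165.5).

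Deviations of same-numbered saline and cKO LPS libraries were correlated (0.387, 0.242 and 0.350). Libraries with different numbers were not compared, so these values cannot show that the numbers pair libraries. A fit blocked by number kept the 11 calls of cKO LPS against saline. It kept 3 of the 5 calls of control LPS against saline. Genes named in full are those called in control LPS against saline and Fos, Jun, Egr1, Atf3, Hspa1a and Hspa1b, with up to 4 of each other list by adjusted p. The members and all lists were chosen with earlier results of these data known. Gene positions and spans are from GENCODE M21 (GRCm38), 1-based; promoter windows are from RefSeq GRCm38.p6, and 26 of 31 matched the transcript sense just after the start. The full values of the Nr4a genes, Egr3, Hbegf and Fosl2, the naming of Nfkbia and the single-exon split were chosen after values were seen.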

Additional observations from a re-analysis of the deposited data

How the results depend on the processing

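In control LPS against control saline, the count of 5 called lower was 5 with a pseudocount of 0.5 or no filter, 3 with a pseudocount of 10, 8 with a mean of at least 50, 8 after quantile normalization, 14 with array weights, 1 in the fit on the 6 libraries of the 2 groups, 4 with edgeR and 11 with DESeq2, and 0 to 8 leaving out 1 library; the count called higher was 1 with array weights and with DESeq2 and 0 to 1 leaving out 1 library. For cKO LPS against control saline, the 10 lower became 21 with array weights, 17 with DESeq2 and 3 to 11 leaving out 1 library, and the 1 higher became 2 with array weights, 2 in the fit on 6 libraries, 3 with DESeq2 and 0 to 2 leaving out 1 library. Fewer samples entered the 2-group and leave-out fits; for the other settings the cause was not tested. No alternative called any of the 38 in cKO LPS against control LPS. Over all genes, 929 were called in control LPS against saline, 417 in the 2-group fit, 2789 with array weights, 1777 with DESeq2 and 374 to 1826 leaving out 1 library; in cKO LPS against saline 1131 were, 3182 with array weights, 2100 with DESeq2 and 490.0 to 1656 leaving out 1 library; and in cKO LPS against control LPS 0 were, 1 in the 2-group fit, 4 with DESeq2 and 0 to 1 leaving out 1 library. Quantile normalization moved the median of all genes to -0.10 in control LPS against saline.

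With the replicate block, control LPS against saline gave 4 lower, of which 3 were among the 5, and cKO LPS against saline gave 10 lower and 1 higher, the same 11 genes. Same-numbered libraries were not all correlated above 0.1 in the former (0.370, 0.0785 and 0.233) or in cKO LPS against control LPS (0.468, -0.066 and 0.216). Without differently numbered libraries beside them, these correlations do not decide whether the numbers pair libraries in any comparison.

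Log2 fold changes changed sign in 24 gene results of 114, none of them called in either fit. Under alternatives other than leaving out a library these were, for control LPS against control saline, Maff (-0.0819 quantile, -0.23 array weights, -0.0282 edgeR, -0.0426 DESeq2) and Ier3 (-0.0653 quantile); for cKO LPS against control LPS, Egr3 (-0.00967 edgeR, -0.0518 DESeq2), Nr4a1 (-0.0105 quantile) and Dusp5 (0.0632 quantile); and for cKO LPS against saline, Mafk (-0.0107 quantile, -0.10 array weights), Klf10 (-0.0504 array weights) and Btg1 (-0.0446 quantile). Leaving out 1 library gave in control LPS against control saline, Maff -0.32 to 0.25, Klf2 -0.39 to 0.25, Klf10 -0.0179 to 0.64, Zfp36l1 -0.79 to 0.0649 and Ier3 -0.14 to 0.33; in cKO LPS against control LPS, Fos -0.42 to 0.00645, Fosb -0.15 to 0.22, Egr2 -0.24 to 0.51, Egr3 -0.24 to 1.13, Nr4a1 -0.0701 to 0.12, Klf6 -0.12 to 0.12, Klf10 -0.48 to 0.11, Dusp5 -0.37 to 0.22, Dusp6 -0.30 to 0.24, Zfp36l2 -0.0943 to 0.0568, Btg1 -0.28 to 0.0501, Btg2 -0.32 to 0.0615, Gadd45b -0.27 to 0.27 and Rhob -0.31 to 0.0784; and in cKO LPS against control saline, Maff -0.53 to 0.035, Mafk -0.19 to 0.31, Klf10 -0.14 to 0.34 and Zfp36l1 -0.56 to 0.30. With 3 libraries a group and the shallowest library among the saline ones, single genes had SEs of 0.18 to 0.65 on the log2 scale in control LPS against saline.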
